A study of Mus musculus with 12 samples.

Results

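Collagen chain genes encode the polypeptides that assemble into the fibrils, networks and filaments of the extracellular matrix. They were taken here as every gene whose single platform symbol starts with Col and a number and then holds the letter a and a number. The rule gave 42 genes, measured by 82 probe sets, among 18193 genes with such a symbol. Each gene was read from its probe set with the highest mean, and 33 of the 42 passed a filter on low values, as did 12921 genes in all.

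The measurements are expression values of mouse lung RNA on 12 Affymetrix arrays, on a log2 scale, so that a difference of 1 is a doubling of the signal. There were 4 groups of 3 arrays from mice aged 8 to 12 weeks. The rhPBEF group received recombinant human PBEF by injection into the trachea, 20 µg per mouse carried in water at 1.5 µl per gram of body weight. The ventilation group, titled VALI, spent 4 hours on a ventilator, at 30 ml/kg per breath. The combined group, titled rhPBEF & VALI, had both treatments at those settings, and the control group had PBS, a salt solution. PBEF, also called NAMPT or visfatin, is an enzyme of NAD synthesis that cells also release. No strain, sex or genotype was given in the labels. They do not say how long after instillation the lungs were taken, whether ventilated mice received saline, or that replicates were separate mice. The p-values therefore measure the spread between these arrays, which may be technical. With no group ventilated at a smaller breath, the breath size and ventilation itself cannot be told apart. Because rhPBEF was carried in water and the control group had PBS, rhPBEF and its carrier cannot be told apart against control, also in the combined group.

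Collagen chains wind around one another into a helix, are hydroxylated and glycosylated in the endoplasmic reticulum, and are trimmed and crosslinked outside the cell. In lung, fibrillar types I and III give the tissue tensile strength, while type IV forms the sheet-like network of the basement membrane between epithelium and capillary. Fibroblasts are the main source of the fibrillar chains, and endothelial and epithelial cells contribute to type IV. Collagen protein turns over slowly, and these arrays measure RNA only.

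Array medians lay between 7.0 and 7.07, with a correlation of 0.983 to 0.997 between replicates over the non-control probe sets. Lung markers were high throughout. Sftpc, a surfactant protein gene of alveolar type II cells, lay between 14.76 and 14.97, and Ager of alveolar type I cells lay between 14.27 and 14.55. Skeletal muscle genes stood out in 2 arrays, at a mean of 3.90 above the control mean in rhPBEF replicate 2 and 2.81 in ventilation replicate 3. All comparisons with control share the same 3 control arrays.

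Upstream sequences are shown for 5 of the collagen genes. Col8a2 and Col23a1 are the genes that passed the test. Col1a2, Col3a1 and Col5a1 are fibrillar genes, each highest of its group in rhPBEF replicate 1 and in ventilation replicate 3. Col5a3, a fibrillar gene with lower values, was highest in the same arrays, and its sequence is not shown. Col1a1, described below, had no sequence among those available. Each is the run of 250 bases ending just before the annotated start, from RefSeq on build GRCm38.p6, plus strand, 5′ to 3′. Capitals mark the letters of 3 general promoter motifs on either strand, namely the CCAAT box (CCAAT), the GC box (GGGCGG) and the TATA box (TATAAA). The windows are chr4:126286544-126286793 for Col8a2, chr11:51289670-51289919 for Col23a1, chr6:4505368-4505617 for Col1a2, chr1:45311288-45311537 for Col3a1 and chr2:27886175-27886424 for Col5a1.
Col8a2: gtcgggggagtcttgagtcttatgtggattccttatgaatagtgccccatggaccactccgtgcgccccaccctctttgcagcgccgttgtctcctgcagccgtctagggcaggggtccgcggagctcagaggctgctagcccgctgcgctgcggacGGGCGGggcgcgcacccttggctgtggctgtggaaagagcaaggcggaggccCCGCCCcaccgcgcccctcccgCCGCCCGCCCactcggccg
Col23a1: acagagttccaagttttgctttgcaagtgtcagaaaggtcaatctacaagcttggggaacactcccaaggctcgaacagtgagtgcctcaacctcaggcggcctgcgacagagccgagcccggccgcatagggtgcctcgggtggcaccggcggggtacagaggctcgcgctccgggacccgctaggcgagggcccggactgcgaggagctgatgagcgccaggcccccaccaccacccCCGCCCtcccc
Col1a2: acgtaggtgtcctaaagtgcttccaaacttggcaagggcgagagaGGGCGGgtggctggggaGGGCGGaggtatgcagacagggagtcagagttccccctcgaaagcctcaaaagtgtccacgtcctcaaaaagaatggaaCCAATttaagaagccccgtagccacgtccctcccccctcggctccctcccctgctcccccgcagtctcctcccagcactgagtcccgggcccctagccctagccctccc
Col3a1: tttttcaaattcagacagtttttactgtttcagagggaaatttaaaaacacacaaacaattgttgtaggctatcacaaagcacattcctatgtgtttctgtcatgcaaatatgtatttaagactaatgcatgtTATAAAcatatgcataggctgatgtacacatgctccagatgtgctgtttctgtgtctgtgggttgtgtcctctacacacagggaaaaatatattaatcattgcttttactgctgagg
Col5a1: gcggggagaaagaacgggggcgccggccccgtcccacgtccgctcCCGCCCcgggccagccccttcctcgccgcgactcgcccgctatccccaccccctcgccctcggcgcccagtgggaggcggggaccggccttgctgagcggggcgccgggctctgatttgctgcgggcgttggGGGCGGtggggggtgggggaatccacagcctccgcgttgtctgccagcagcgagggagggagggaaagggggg

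Col8a2 held 4 GC boxes, of which a pair overlap, and Col23a1 held 1. Col1a2 held 1 CCAAT box and 2 GC boxes, Col3a1 held 1 TATA box, and Col5a1 held 2 GC boxes. The 3 fibrillar windows shown shared no motif common to all of them. The Col5a3 window, not shown, held 1 CCAAT box and 2 GC boxes. The 26 collagen genes past the filter that could be matched to RefSeq had 29 windows, since some have more than 1 listed start. Of these 29 windows, 12 held a CCAAT box, 17 a GC box and 3 a TATA box. Among all 32851 windows of this length the shares were 33.8%, 32.7% and 12.4%. A match of letters describes the sequence and does not show that a factor binds there.

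Across the comparisons with control, collagen RNA differed little in the mean. At an adjusted p under 0.05 in limma, the combined treatment lowered 2 of 33 genes, Col8a2 and Col23a1, beside 4.86% of all genes lower. With rhPBEF alone and with ventilation alone 0 of 33 passed, beside 1.22% and 0.00774% of all genes. The abundant fibrillar and basement membrane chains did not pass in any comparison, by a test that pools the spread of all 4 groups. For every one of the 33 genes the 95% interval lay within 2-fold of control in each of the 3 comparisons. Because whole-lung RNA was measured, fewer cells of a type and less RNA per cell cannot be told apart.

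In the combined treatment the 2 falls stood beside 1136 of 12921 genes past an adjusted p of 0.05 (limma, Benjamini-Hochberg), or 8.79% of the genes tested, and 4.86% in the lower direction. An unadjusted p under 0.05 was reached by 3 of 33 collagen genes, Col8a2, Col23a1 and Col4a6, all lower, beside a larger share, 27.5%, of all genes. Groups did not overlap for 5 higher and 3 lower collagen genes, beside 12.5% and 24.4% of all genes. The median difference was -0.00 for the collagen genes, with 16 positive and 17 negative, against -0.06 and 61.8% negative for all genes tested, and it became 0.02 with each array centred on its median. Leaving out single arrays gave -0.00 to 0.03. The lowest difference was that of Col8a2 and the highest, 0.26, that of Col5a2.

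Col8a2 encodes a chain of type VIII collagen, a short-chain collagen that builds hexagonal networks in vessel walls and in Descemet's membrane of the eye. Its values were 6.71, 6.71 and 7.04 in the rhPBEF arrays, 7.20, 6.81 and 6.88 in the ventilation arrays, 6.68, 6.70 and 7.0 in the combined arrays, and 7.35, 7.15 and 7.46 in the control arrays. The combined arrays all lay below the control arrays, as did the rhPBEF arrays, and a ventilation array overlapped control. Col8a2 fell by 0.52 ± 0.14 (SE) on the log2 scale in the combined treatment, to 0.696 of control (95% interval of the log2 difference -0.83 to -0.22, limma adjusted p = 0.0442). It stood at -0.50 ± 0.14 for rhPBEF against control (adjusted p = 0.116) and at -0.35 ± 0.14 for ventilation against control (adjusted p = 0.277). Between the combined and the rhPBEF arrays the difference was -0.03 (95% interval -0.33 to 0.28).

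Col23a1 encodes the chain of type XXIII, a collagen anchored in the cell membrane with its helices outside the cell. Its values were 9.40, 9.20 and 9.40 in the rhPBEF arrays, 9.42, 9.11 and 9.38 in the ventilation arrays, 9.25, 9.15 and 9.25 in the combined arrays, and 9.52, 9.60 and 9.58 in the control arrays. In this probe set, the one with the highest mean, the arrays of all 3 treated groups lay below every control array. Col23a1 fell by 0.35 ± 0.09 (SE) in the combined treatment, to 0.784 of control (95% interval -0.56 to -0.14, limma adjusted p = 0.0453). It stood at -0.23 for rhPBEF (adjusted p = 0.230) and at -0.26 for ventilation (adjusted p = 0.245). The other probe sets of Col23a1 stood at -0.31 and -0.10 in the combined treatment. In the latter the groups overlapped. There rhPBEF replicate 3 (9.51) and combined replicate 3 (9.60) lay above every control array (9.44, 9.47 and 9.47).

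Both calls were close to the threshold. Neither gene passed without any one of the 3 control arrays, without combined replicate 1 or 2, or without rhPBEF replicate 1, and 1 of the pair passed without rhPBEF replicate 2 or 3. With each array centred on its median or with quantile normalization neither passed. In the same comparison 3 of 12 endothelial markers fell, beside 4.86% of all genes lower. Their list means were -0.55, -0.39 and -0.23 from control in the combined replicates. Of 9 neutrophil markers 7 rose, beside 3.93% of all genes higher, with list means of 3.63, 2.68 and 2.03. Adipocyte markers fell in 2 of 6, beside the same 4.86%, with list means of -0.70, -0.61 and -0.70. The control arrays themselves spread from -0.44 to 0.78 in that list. In addition 1 of 5 mesothelial and 1 of 11 epithelial markers rose, beside the same 3.93%, each a single gene. In the fibroblast, smooth muscle and pericyte, cartilage, skeletal muscle, cardiac muscle and lymphocyte lists 0 passed. Their part in the values of Col8a2 and Col23a1 was not tested.

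**Figure D1:**
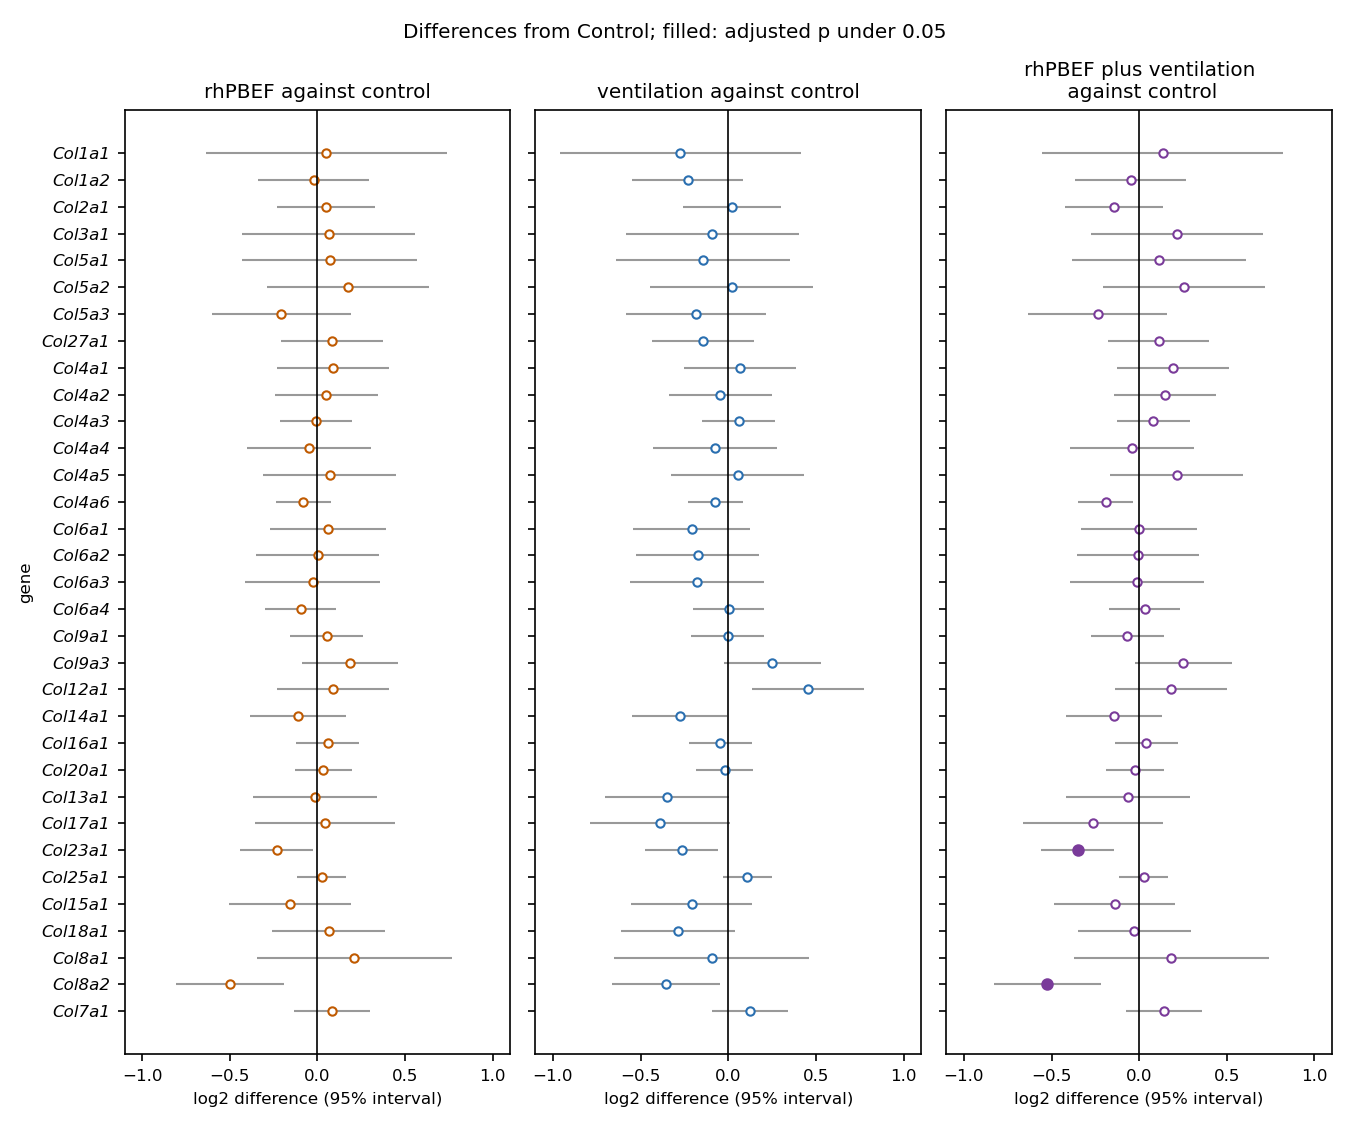
Log2 difference from control (horizontal axes) of the 33 collagen genes past the filter, ordered by structural class, for rhPBEF, ventilation and both, with 95% intervals from the limma fit (3 arrays per group). Filled points have an adjusted p under 0.05; they are Col8a2 at -0.52 and Col23a1 at -0.35, both in the combined treatment.

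Fibrillar collagens form the rope-like fibrils of connective tissue. Of 11 such genes 8 passed the filter, and 0 of 8 passed the test in each of the 3 comparisons with control, at either the adjusted or an unadjusted p of 0.05 in limma. Their median difference was 0.06 for rhPBEF, -0.14 for ventilation and 0.11 for the combined treatment. The rhPBEF median was -0.12 without rhPBEF replicate 1, 0.20 without rhPBEF replicate 3 and 0.12 with the mean of each gene's probe sets. The ventilation median was -0.063, -0.066 and -0.31 without ventilation replicates 1, 2 and 3, and -0.034 with the mean of each gene's probe sets. Single arrays thus set the size of the ventilation median and the sign of the rhPBEF median.

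Col1a2 encodes the alpha 2 chain of type I collagen, the main tensile collagen of lung. Its values were 13.46, 13.25 and 13.02 in the rhPBEF arrays, 12.89, 12.83 and 13.37 in the ventilation arrays, 13.19, 13.18 and 13.27 in the combined arrays, and 13.28, 13.31 and 13.21 in the control arrays. Control and combined arrays lay close together, and the other groups spread to both sides. The difference was -0.02 ± 0.14 (SE) for rhPBEF, -0.23 ± 0.14 for ventilation and -0.05 ± 0.14 for both, with adjusted p of 0.956, 0.437 and 0.855 in limma. Its other probe set past the filter stood at 0.43 for the combined treatment, so the probe sets differ in sign there.

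The partner chain and the type III chain were chosen for description after their values were seen. Col1a1, encoding the alpha 1 chain of type I, had 12.15, 11.48 and 10.91 in the rhPBEF arrays, 10.90, 10.78 and 11.90 in the ventilation arrays, 11.67, 11.64 and 11.49 in the combined arrays, and 11.52, 11.43 and 11.45 in the control arrays. The rhPBEF arrays spanned 1.25 and the ventilation arrays 1.12 on the log2 scale, against 0.18 in the combined and 0.09 in the control arrays. Over the 12 arrays Col1a1 spanned 2.60-fold, the widest range of the 33 genes. Its mean difference was 0.05 ± 0.31 (SE) for rhPBEF, -0.27 ± 0.31 for ventilation and 0.13 ± 0.31 for both, and its other probe set stood at 0.22 for ventilation and 0.64 for both.

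Col3a1 encodes the type III chain, which forms fibrils with type I in elastic tissues. Its values were 13.46, 13.08 and 12.68 in the rhPBEF arrays, 12.61, 12.68 and 13.47 in the ventilation arrays, 13.18, 13.28 and 13.22 in the combined arrays, and 13.06, 12.99 and 12.99 in the control arrays. The combined arrays lay above all control arrays, with a difference of 0.21 ± 0.22 (SE, limma adjusted p = 0.569), while rhPBEF and ventilation arrays lay on both sides of control. Col5a2, whose gene neighbours Col3a1 on chromosome 1 and whose product regulates fibril width, stood at 0.26 ± 0.21 in the combined treatment. It also did not overlap control. Its other probe set past the filter did overlap, at 8.17, 8.26 and 8.76 in the combined and 8.42, 8.32 and 8.46 in the control arrays. The SD of Col3a1 was 0.04 in control and 0.05 in combined arrays, against 0.39 in rhPBEF and 0.48 in ventilation arrays. For Col5a2 these were 0.03 and 0.08, against 0.35 and 0.45. The fit pools all 4 groups, so both SE rest largely on arrays outside this comparison.

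Among the lower fibrillar genes, Col5a3, a type V chain, had 7.18, 7.16 and 6.47 in the rhPBEF arrays, 6.80, 6.97 and 7.11 in the ventilation arrays, 7.06, 6.90 and 6.76 in the combined arrays, and 7.26, 6.94 and 7.23 in the control arrays. Replicate 3 of rhPBEF was lowest of the 12 arrays, and the difference for rhPBEF was -0.20 ± 0.18 (SE, adjusted p = 0.581), or 0.029 without that array. Col27a1, encoding a fibrillar collagen best known from cartilage, had 8.83, 8.81 and 9.04 in the rhPBEF arrays, 8.61, 9.0 and 8.40 in the ventilation arrays, 9.0, 8.83 and 8.94 in the combined arrays, and 8.82, 8.80 and 8.82 in the control arrays. It had the smallest p among the collagen genes for the combined treatment against ventilation, 0.25 ± 0.13 (SE, limma adjusted p = 0.572), with overlapping groups. Col2a1, the type II chain of cartilage, had 6.89, 6.49 and 6.41 in the rhPBEF arrays, 6.64, 6.59 and 6.46 in the ventilation arrays, 6.39, 6.55 and 6.26 in the combined arrays, and 6.65, 6.54 and 6.45 in the control arrays. All its groups overlapped.

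Type IV collagen forms the basement membrane network, and its 6 genes lie in 3 head-to-head or adjoining pairs on chromosomes 8, 1 and X. All 6 passed the filter and 0 of 6 passed the test in any of the comparisons with control (limma). In the combined treatment 1 was lower at an unadjusted p under 0.05, beside 27.5% of all genes at that p. Col4a1, an alpha chain of every basement membrane, had 13.83, 13.60 and 13.40 in the rhPBEF arrays, 13.46, 13.40 and 13.92 in the ventilation arrays, 13.79, 13.76 and 13.59 in the combined arrays, and 13.42, 13.57 and 13.58 in the control arrays. The combined arrays lay above the control arrays with a difference of 0.19 ± 0.14 (SE, limma adjusted p = 0.425), and the other groups overlapped control. For the other probe set of Col4a1, combined replicate 3, at 12.34, lay inside the control range of 12.32 to 12.41. Its neighbour Col4a2, which starts 21 bases away on the opposite strand, had differences of 0.05, -0.04 and 0.15 for rhPBEF, ventilation and both, against 0.09, 0.07 and 0.19 for Col4a1.

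Col4a6 and Col4a5 start 1343 bases apart on opposite strands of the X chromosome and pair in some epithelial basement membranes. Col4a6 had 8.48, 8.45 and 8.5 in the rhPBEF arrays, 8.42, 8.54 and 8.49 in the ventilation arrays, 8.30, 8.42 and 8.37 in the combined arrays, and 8.61, 8.61 and 8.46 in the control arrays. Its combined arrays lay below the control arrays at -0.19 ± 0.07 (SE, limma adjusted p = 0.115), and below the rhPBEF arrays too. Neither separation held in the other Col4a6 probe set. There combined replicate 3, at 8.29, lay above control replicate 3 (8.17) and above the rhPBEF arrays (8.15, 8.10 and 8.09). Col4a5 stood at 0.22 ± 0.17 for the combined treatment against control (limma adjusted p = 0.453). Its other probe set past the filter stood at -0.11, so the probe sets differ in sign. Whether the neighbours differ from each other was not tested. Col4a3 and Col4a4, the chains of the glomerular and alveolar basement membrane, had differences between -0.08 and 0.08 in the 3 comparisons.

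Type VI collagen forms beaded filaments around cells. Of 5 such genes 4 passed the filter and 0 of 4 passed the test in each comparison with control, adjusted or unadjusted. Col6a1 had 12.27, 12.14 and 12.03 in the rhPBEF arrays, 11.72, 11.60 and 12.30 in the ventilation arrays, 12.10, 12.03 and 12.11 in the combined arrays, and 12.09, 12.11 and 12.04 in the control arrays. Ventilation replicates 1 and 2 lay below every other array, and replicate 3 lay above every other array. The difference was 0.06 ± 0.15 (SE) for rhPBEF, -0.21 ± 0.15 for ventilation and -0.00 ± 0.15 for both, with adjusted p of 0.864, 0.502 and 0.996. Col6a2 and Col6a3, the usual partners of Col6a1, stood at -0.18 each with ventilation. Col6a4, a further chain of the family, had 6.34, 6.27 and 6.51 in the rhPBEF arrays, 6.52, 6.31 and 6.57 in the ventilation arrays, 6.45, 6.49 and 6.56 in the combined arrays, and 6.40, 6.55 and 6.45 in the control arrays. It lies close to the filter and all its groups overlapped control.

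Fibril-associated collagens sit on the surface of fibrils and link them to other matrix. Of 9 genes 6 passed the filter and 0 of 6 passed the test. Col12a1, type XII, found in tissues under mechanical load, had 9.13, 9.0 and 8.77 in the rhPBEF arrays, 9.04, 9.53 and 9.43 in the ventilation arrays, 8.94, 8.95 and 9.29 in the combined arrays, and 8.79, 8.87 and 8.96 in the control arrays. All 3 ventilation arrays lay above the control arrays, with a difference of 0.46 ± 0.14 (SE, 95% interval 0.14 to 0.78, limma adjusted p = 0.204). It was the highest difference among the 33 genes for ventilation, with the smallest p, and its other probe set past the filter stood at 0.18. In the combined treatment Col12a1 stood at 0.18, and the interaction was -0.37 ± 0.20 (SE, adjusted p = 0.999).

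Col14a1, type XIV, a fibril-associated collagen of fibroblast-rich tissue, had 9.18, 9.27 and 9.08 in the rhPBEF arrays, 8.92, 8.92 and 9.18 in the ventilation arrays, 8.95, 9.10 and 9.37 in the combined arrays, and 9.46, 9.17 and 9.23 in the control arrays. With ventilation it stood at -0.28 ± 0.12 (SE, adjusted p = 0.312), with replicate 3 inside the control range. Col9a3, a chain of type IX, known from cartilage, had 7.20, 7.09 and 7.21 in the rhPBEF arrays, 7.15, 7.56 and 7.0 in the ventilation arrays, 7.34, 7.22 and 7.14 in the combined arrays, and 7.05, 6.93 and 6.97 in the control arrays. The rhPBEF arrays and the combined arrays lay above the control arrays, with differences of 0.19 and 0.25 ± 0.13 (SE, adjusted p = 0.460 and 0.216). Its ventilation difference of 0.25 (adjusted p = 0.362) rested most on replicate 2.

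Transmembrane collagens span the cell membrane, and all 4 passed the filter. Beside Col23a1, Col13a1, a collagen of cell adhesion sites, had 10.06, 9.76 and 9.43 in the rhPBEF arrays, 9.39, 9.18 and 9.67 in the ventilation arrays, 9.82, 9.77 and 9.52 in the combined arrays, and 9.70, 9.76 and 9.84 in the control arrays. All ventilation arrays lay below the control arrays, with a difference of -0.35 ± 0.16 (SE, limma adjusted p = 0.325), while the combined treatment stood at -0.06. Col17a1, which anchors epithelial cells to the basement membrane at hemidesmosomes, had 6.51, 7.21 and 6.53 in the rhPBEF arrays, 6.26, 6.23 and 6.46 in the ventilation arrays, 6.22, 6.52 and 6.59 in the combined arrays, and 6.52, 6.75 and 6.85 in the control arrays. It too lay below control in all ventilation arrays, at -0.39 ± 0.18 (SE, adjusted p = 0.329), the lowest ventilation difference among the 33 genes. Col25a1 stood between 0.03 and 0.11 in the 3 comparisons.

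The remaining classes are small. Col18a1, the multiplexin whose end fragment is endostatin, had 9.53, 9.14 and 9.01 in the rhPBEF arrays, 8.80, 8.67 and 9.15 in the ventilation arrays, 9.22, 9.10 and 9.07 in the combined arrays, and 9.13, 9.08 and 9.27 in the control arrays. It stood at -0.29 ± 0.15 (SE, adjusted p = 0.370) with ventilation and at -0.03 in the combined treatment. Its relative Col15a1 stood at -0.16, -0.21 and -0.14 for rhPBEF, ventilation and both. Col8a1, the other type VIII chain, had 7.80, 8.19 and 8.17 in the rhPBEF arrays, 7.54, 7.31 and 8.39 in the ventilation arrays, 7.80, 7.85 and 8.41 in the combined arrays, and 7.76, 7.94 and 7.82 in the control arrays. The ventilation arrays spanned 1.09, and the difference in the combined treatment was 0.18 ± 0.25 (SE, adjusted p = 0.682), against -0.52 for Col8a2. The anchoring fibril gene Col7a1 stood at 0.09, 0.13 and 0.14.

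Below the filter were 9 genes, namely Col10a1, Col11a1, Col11a2, Col19a1, Col22a1, Col24a1, Col26a1, Col6a5 and Col9a2. Col10a1, Col11a1, Col11a2 and Col9a2 are known from cartilage. Their levels ran from 3.36, in Col24a1, to 6.32, in Col11a2. No detection calls came with the values, so these levels could not be told from background and were not tested. Col2a1, Col9a3 and Col27a1, also known from cartilage, did pass the filter. Of 10 listed cartilage markers 3 were past it, beside 12921 of 18193 genes in all. They were Acan, between 6.99 and 7.28, Cytl1, between 8.62 and 9.61, and Chad, between 8.32 and 9.69.

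For rhPBEF against control 0 of 33 collagen genes passed, beside 1.22% of all genes (limma, adjusted p under 0.05), and 2 reached an unadjusted p under 0.05, Col8a2 and Col23a1, beside 18.3% of all genes. The lowest and highest differences were -0.50 for Col8a2 and 0.21 for Col8a1, and 32 of 33 differences were smaller than 0.25 in size. The median was 0.05, with 21 positive and 12 negative, against -0.07 and 65.7% negative for all genes. Leaving out rhPBEF replicate 1, 2 or 3 gave -0.041, 0.031 or 0.079, and leaving out control replicate 1 or 2 gave 0.019 or 0.026. Groups did not overlap for 3 higher and 2 lower collagen genes, beside 9.24% and 24% of all genes.

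For ventilation against control 0 of 33 passed, beside 0.00774% of all genes, and 4 reached an unadjusted p under 0.05 in limma, beside 15.5% of all genes. They were Col12a1, which was higher, and Col23a1, Col8a2 and Col14a1, which were lower. The median was -0.09, with 23 negative and 10 positive, against -0.04 for all genes. Without ventilation replicate 1 it was -0.020, with 18 of 33 negative, without replicate 2 it was -0.0535, with 19 of 33 negative, and without replicate 3 it was -0.25, with 27 of 33 negative. With the mean of each gene's probe sets it was -0.0445. Negative differences made up 59% of all genes tested. Groups did not overlap for 2 higher and 3 lower collagen genes, beside 9.1% and 15.5% of all genes. The intervals were wide enough that 16 of 33 lay within 0.5 on either side of 0, against 25 of 33 for rhPBEF and 21 of 33 for both.

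The remaining comparisons called 0 of 33 collagen genes in limma. All genes past the threshold made up 0.325% for the combined treatment against ventilation, 0.00774% for the combined treatment against rhPBEF, 4.67% for rhPBEF averaged over ventilation status, 0.549% for ventilation averaged over rhPBEF status and 0% for the interaction. At an unadjusted p under 0.05 the averaged rhPBEF effect had 2 collagen genes, beside 23.7% of all genes, and the averaged ventilation effect had 3, beside 16.6%. The combined treatment against ventilation, the combined treatment against rhPBEF and the interaction had 0, beside 9.98%, 3.77% and 2.23% of all genes. Col8a2 had the smallest adjusted p, 0.0779 for the averaged rhPBEF effect, at -0.33 ± 0.10 (SE). Against ventilation, the combined treatment had a median of 0.12 over the collagen genes, with 24 positive and 9 negative, against -0.02 and 56.4% negative for all genes, and Col1a1 stood highest at 0.41 ± 0.31. That median was 0.0562, 0.0561 and 0.198 without ventilation replicates 1, 2 and 3, and 0.0692 without combined replicate 3.

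Collagen levels spread widely between replicates of the single treatments. Ventilation replicate 3 held the highest value of its group in 24 of 33 collagen genes, or 72.7%, against 37.1% of all genes tested. In the rhPBEF group replicate 1 was highest in 18 of 33 (54.5%, against 37.1% of all genes) and replicate 3 lowest in 20 of 33 (60.6%, against 35.6%). These counts describe single arrays, since genes are not independent replicates, and they carry no test.

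Among fibrillar genes rhPBEF replicate 1 was highest in 7 of 8 and replicate 3 lowest in 7 of 8. Their mean lay 0.34, 0.05 and -0.29 from the control mean in rhPBEF replicates 1 to 3, -0.31, -0.25 and 0.17 in the ventilation replicates, and 0.07, 0.06 and 0.02 in the combined replicates. Type VI genes had -0.26, -0.38 and 0.22 in the ventilation replicates, with replicate 3 highest in 4 of 4. For type IV genes the ventilation values were -0.16, -0.12 and 0.27.

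**Figure D2:**
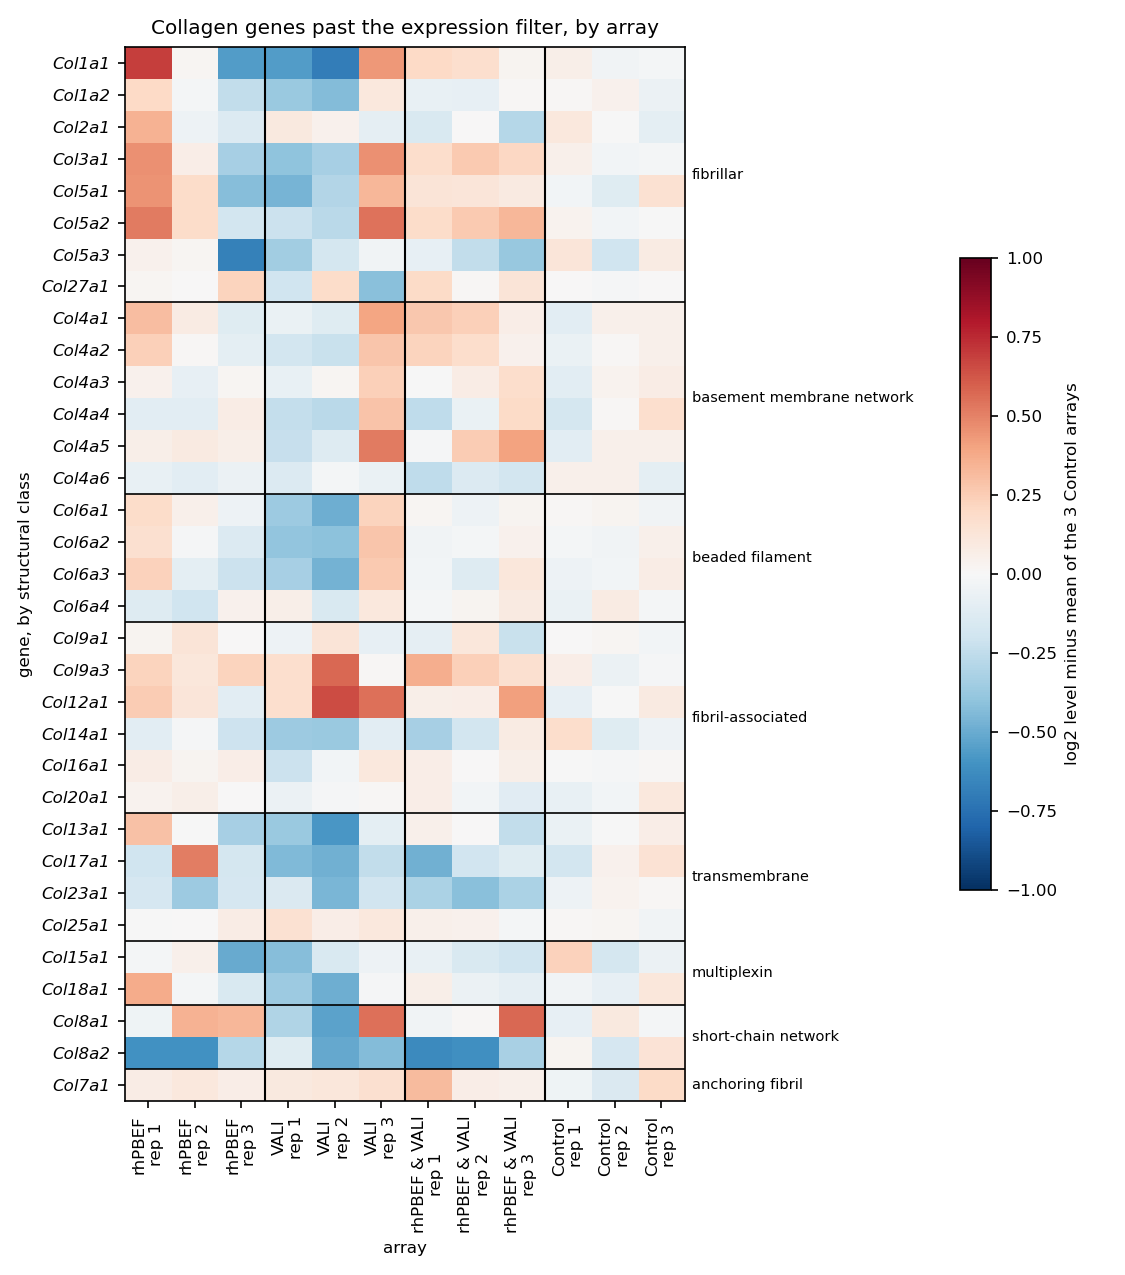
Level of each of the 33 collagen genes past the filter (rows, by structural class) in each of the 12 arrays (columns, by group), as log2 level minus the mean of the 3 control arrays. Ventilation (VALI) replicate 3 is highest of its group in 24 of 33 genes, and rhPBEF replicate 1 in 18 of 33, while combined and control columns vary less.

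A range over 0.5 log2 units between replicates was found for 9 of 33 collagen genes in the rhPBEF group and 14 of 33 in the ventilation group. In the combined group it was found for 1 of 33, Col8a1, and in the control group for 0 of 33. The shares were 27.3%, 42.4%, 3.0% and 0.0% in that order, against 11.2%, 23.9%, 17.9% and 4.5% of all genes tested. The median SD of a collagen gene was 0.170 in rhPBEF, 0.248 in ventilation, 0.0939 in combined and 0.0843 in control arrays, against 0.113, 0.156, 0.129 and 0.0860 over all genes. Collagen genes thus varied more than the median gene in the single treatments and less in the combined treatment, as a description of 3 arrays per group.

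**Figure D3:**
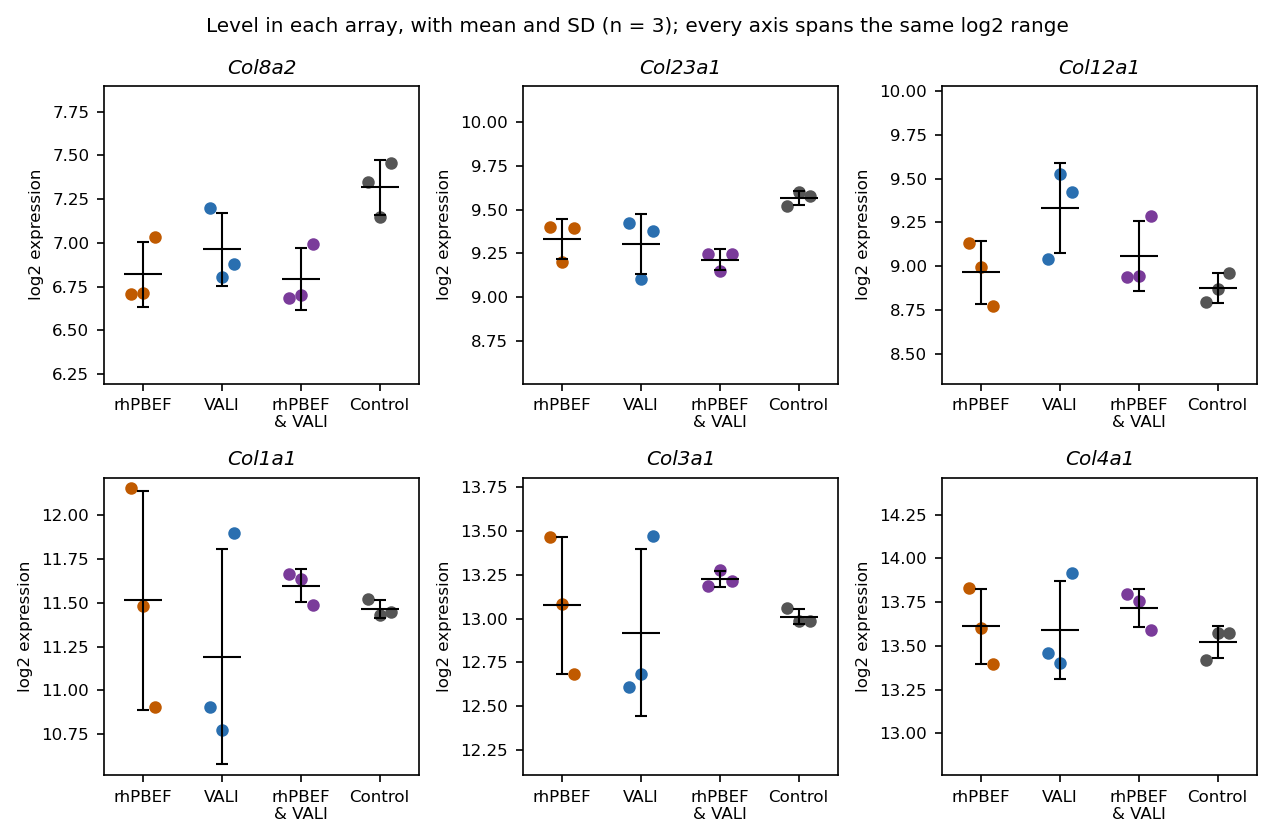
Log2 level (vertical axes, each spanning the same range) of 6 collagen genes in each array of the 4 groups, with mean and SD (n = 3). Each gene is read from its probe set with the highest mean. Col8a2 and Col23a1 lie below control in all combined arrays, Col12a1 lies above control in all ventilation (VALI) arrays, and Col1a1, Col3a1 and Col4a1 spread between replicates of the single treatments.

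Markers of other cell types differed between the same arrays. Of 12 fibroblast markers all were tested and 0 passed in the comparisons with control (limma). At an unadjusted p under 0.05, 2 were lower for ventilation and 3 for both, near the 15.5% and 27.5% of all genes. Their mean lay -0.23, -0.38 and -0.06 from control in ventilation replicates 1 to 3, and 0.00, -0.03 and -0.04 in the rhPBEF replicates, where fibrillar collagen ran from 0.34 to -0.29. Within the fibroblast list Mfap4 fell over the rhPBEF replicates, at 12.75, 12.68 and 12.26, while Inmt rose, at 13.83, 14.10 and 14.31. Smooth muscle and pericyte markers had -0.93, -0.22 and -0.21 in the ventilation replicates, and 0.06, -0.09 and -0.39 in the rhPBEF replicates. The 9 neutrophil markers tested lay 3.27, 2.93 and 0.75 above control in the ventilation replicates, so the array with the highest collagen values had the lowest neutrophil mean of its group. It also had the skeletal muscle mean of 2.81. In the rhPBEF replicates the neutrophil means were 2.88, 2.47 and 2.45, so replicate 1, highest in fibrillar collagen, was highest there too. The part of these cell types in the collagen values was not tested.

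**Figure D4:**
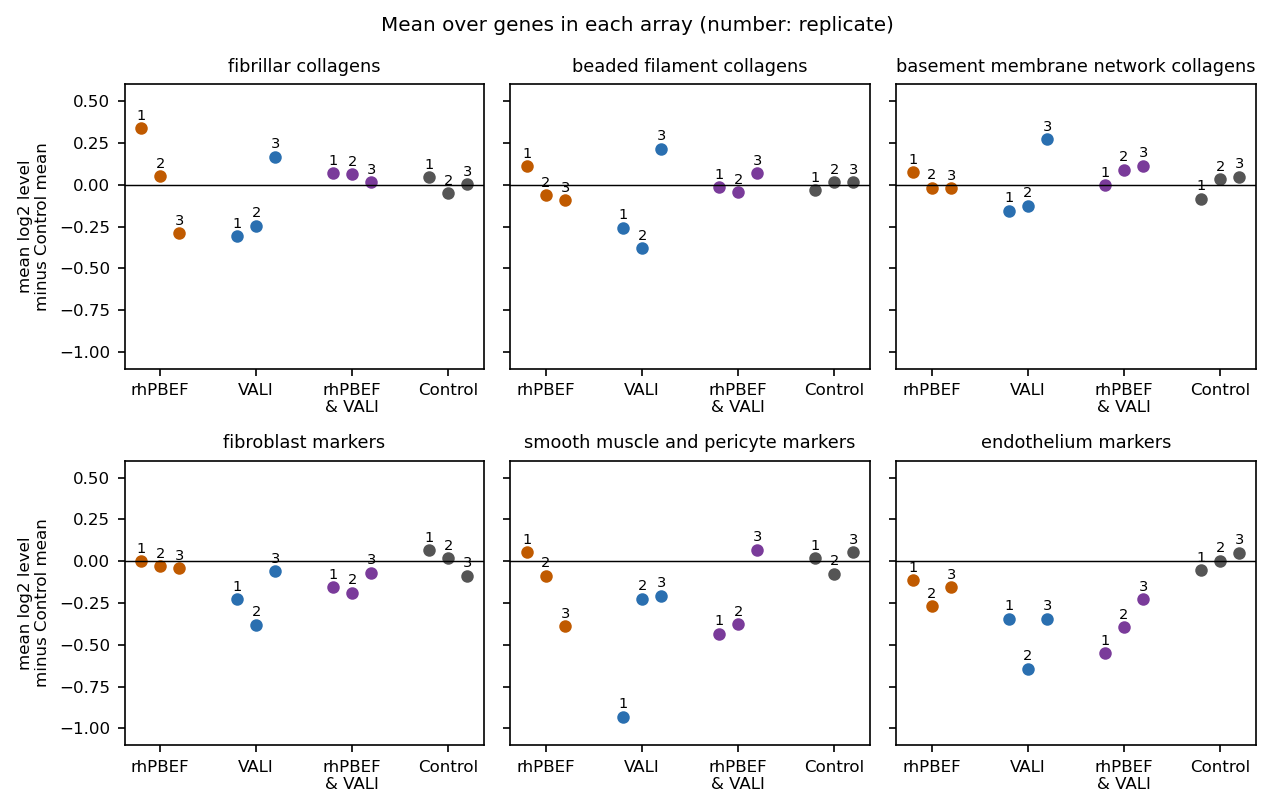
Mean log2 level minus the control mean (vertical axes) over fibrillar, beaded filament and basement membrane collagen genes and over fibroblast, smooth muscle and pericyte, and endothelial markers, for each array of the 4 groups, with numbers for replicates. Fibrillar genes run from 0.34 to -0.29 within rhPBEF. There the means of fibroblast markers lie between 0.00 and -0.04, and those of smooth muscle and pericyte markers between 0.06 and -0.39.

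Enzymes and chaperones that hydroxylate, glycosylate and fold the chains came from a list of 20, of which 18 were tested. None passed in limma, and 2 were lower at an unadjusted p under 0.05 in each comparison with control, beside 18.3%, 15.5% and 27.5% of all genes for rhPBEF, ventilation and both. Negative differences were found for 17 of 18 with rhPBEF (median -0.16), 13 of 18 with ventilation (median -0.09) and 18 of 18 with both (median -0.18), against 65.7%, 59% and 61.8% of all genes. P3h2, a prolyl 3-hydroxylase gene, stood at -0.21 ± 0.09 (SE) with rhPBEF and -0.23 ± 0.09 with both (adjusted p = 0.270 and 0.143). Colgalt2, which adds galactose to hydroxylysine, stood at -0.25 ± 0.09 with rhPBEF (adjusted p = 0.202). With ventilation P3h3 and Crtap, both acting in prolyl 3-hydroxylation, stood at -0.27 each. Ventilation replicate 2 stood apart in 4 genes of this list, chosen after their values were seen. Serpinh1, a chaperone that binds procollagen, had 11.47, 13.69 and 11.93 in the ventilation arrays, against 11.84, 11.86 and 12.16 in the control arrays. P4ha1, a prolyl 4-hydroxylase subunit gene, had 10.09, 12.33 and 9.55 in the ventilation arrays, against 10.05, 9.98 and 9.91 in the control arrays. P4ha2 and Plod1, a related subunit gene and a lysyl hydroxylase gene, were also highest of the 12 arrays there, at 11.15 and 9.58.

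Proteoglycans and partners that bind fibrils were tested for 12 of 14 listed genes and 0 passed in limma. With ventilation 12 of 12 were negative (median -0.21), with 4 at an unadjusted p under 0.05, beside 59% of all genes negative and 15.5% at that p. Fbln1, encoding the matrix protein fibulin 1, stood at -0.39 ± 0.10 (SE, adjusted p = 0.151), and Prelp, a small leucine-rich proteoglycan gene, at -0.38 ± 0.10 (adjusted p = 0.153). In the combined treatment 10 of 12 were negative (median -0.24), beside 61.8% of all genes, with Fbln1 at -0.34 ± 0.10 (adjusted p = 0.0569) and Prelp at -0.32 ± 0.10 (adjusted p = 0.0721). With rhPBEF 9 of 12 were negative, beside 65.7% of all genes, or 6 of 12 with arrays centred on their medians.

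Among the lists of collagen partners, the degradation list held genes past the threshold. Of 11 genes tested of 14 listed, 2 rose in the combined treatment, beside 3.93% of all genes, 0 passed with rhPBEF and 0 with ventilation. Mmp8, the collagenase of neutrophils, which cleaves fibrillar collagen, had 10.36, 9.55 and 9.85 in the rhPBEF arrays, 11.63, 10.93 and 8.29 in the ventilation arrays, 11.38, 10.26 and 9.15 in the combined arrays, and 7.32, 7.02 and 7.41 in the control arrays. All treated arrays lay above the control arrays. Mmp8 rose by 3.02 ± 0.74 (SE) in the combined treatment (limma adjusted p = 0.0350), and stood at 2.67 for rhPBEF and 3.03 for ventilation (adjusted p = 0.115 and 0.137). It is also one of the neutrophil markers.

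Timp1, an inhibitor of matrix metalloproteinases, had 10.51, 9.93 and 8.75 in the rhPBEF arrays, 9.06, 9.01 and 8.98 in the ventilation arrays, 11.31, 10.87 and 9.10 in the combined arrays, and 8.55, 8.26 and 8.63 in the control arrays. Replicate 3 of the combined and of the rhPBEF group lay nearest to control. Timp1 rose by 1.95 ± 0.52 (SE) in the combined treatment (adjusted p = 0.0443) and stood at 1.25 ± 0.52 for rhPBEF (adjusted p = 0.239). Mmp9, a gelatinase gene that neutrophils also express, stood at 1.13 ± 0.46 for rhPBEF (adjusted p = 0.230). Timp2 stood at -0.24 ± 0.09 for ventilation (adjusted p = 0.268).

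Other steps showed 0 genes past the threshold in limma for the comparisons with control. Crosslinking was tested for 5 of 6 genes, and Loxl3 and Loxl4, of the lysyl oxidase family, stood at -0.26 ± 0.11 and 0.26 ± 0.12 (SE) in the combined treatment (adjusted p = 0.160 and 0.183). Secretion and propeptide removal was tested for 9 of 14 genes, with the procollagen enhancer gene Pcolce2 at -0.23 ± 0.09 (adjusted p = 0.147). Receptors were tested for 7 of 11, with Itga2, the integrin alpha 2 chain that binds collagen, at 0.34 ± 0.10 (adjusted p = 0.0528). At an unadjusted p under 0.05 in the combined treatment these lists had 1 lower, 1 lower and 1 higher gene, beside 27.5% of all genes.

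Other basement membrane proteins were tested for 14 of 16 genes, and 0 passed. With ventilation 13 of 14 were negative (median -0.11), beside 59% of all genes. At an unadjusted p under 0.05 there were 2, near the 15.5% of all genes, namely the laminin gene Lama4 at -0.25 ± 0.10 (SE, adjusted p = 0.269) and the peroxidasin gene Pxdn at -0.48 ± 0.20 (adjusted p = 0.288). With rhPBEF the laminin genes Lama3 and Lama5 stood at -0.28 ± 0.08 and 0.30 ± 0.12 (adjusted p = 0.132 and 0.238). Of the 6 type IV genes beside them, 3 were negative with ventilation.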

How the data were processed

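Lung RNA was measured on 12 arrays in 4 groups of 3, grouped by the titles and treatment protocols. A description field that names each sample as a control was not used. The RNA was a Trizol extract and was biotin-labelled, per the labels' protocols. The deposited table holds log2 values that the authors had normalized, 1 per probe set and array. MAS5 and GCRMA are named in the submitters' processing notes. What each did to the values, and its version, is not given in the sources used here. Values ran from 2.99 to 15.02 and carry no detection calls. Precision is limited by having 3 arrays in each group.

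Of 45037 non-control probe sets, 34945 had a single gene symbol in the platform annotation, 932 several and 9160 none. Only the first kind was used. Each gene took its probe set with the highest mean over the 12 arrays, and genes with a mean above the 40th percentile (6.42) were tested. No build is named with the table. A model of 4 group means was used, from limma 3.58.1 (R 4.3.3), where eBayes added 2.99 prior to 8 residual degrees of freedom. Every SE thus pools the spread of all 4 groups, even where it is unequal. Benjamini-Hochberg adjustment ran over 12921 genes within each of 8 comparisons, and calls used an adjusted p under 0.05. With 3 arrays a side, 0.1 is the smallest two-sided p of an exact test. The fit was tested on simulated data. Plots used Python 3.11.15 and matplotlib 3.10.9.

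Values in each array are given for collagen genes past 0.05 in any comparison, for those with the smallest p up to 4 per comparison, and for the highest-mean gene of each class. In other lists, genes past 0.05 are named, or else the pair with the smallest p. The collagen genes, classes and lists were chosen with earlier results of these data known. Alternatives changed the filter, the normalization, the variance model, the probe sets per gene, the replicate block and the arrays in the fit, and left out each array. Leaving out both arrays high in skeletal muscle genes was chosen after seeing the data. Col6a6 and Col28a1 were not analysed here.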

Additional observations from a re-analysis of the deposited data

How the results depend on the processing

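The combined treatment lowered 2 collagen genes against control. The count was 0 with no filter on low values, with each array centred on its median, with quantile normalization and with all probe sets fitted. It was 1 with the filter at the 60th percentile (Col23a1), with the mean of a gene's probe sets (Col8a2) and without the pair of arrays with high skeletal muscle values (Col23a1), a setting chosen after seeing the data. Leaving out each array in turn gave 0 to 2. For rhPBEF averaged over ventilation status the count of 0 became 1 without ventilation replicate 3 (Col6a1, higher) or without combined replicate 3 (Col8a2, lower), a range of 0 to 1. The counts of the other 6 comparisons were 0 under every alternative run. The adjusted p for the combined treatment ran from 0.0160 to 0.176 for Col8a2 and from 0.0187 to 0.146 for Col23a1 over the alternatives, and the causes were not tested. The difference of Col5a3 for rhPBEF against control, -0.20, ran from -0.33 to 0.029 when each array was left out, and was 0.029 without rhPBEF replicate 3. With the replicate number as a block the count stayed 2 (adjusted p 0.0316 for Col8a2 and 0.0360 for Col23a1). Arrays of the same number correlated at -0.21 to 0.53 in their deviations from group means, over 0.1 in 7 of 18 pairs. Arrays of different numbers in different groups correlated at -0.53 to 0.33. These overlapping ranges cannot settle whether the numbers pair the samples. Without control replicate 1, 2 or 3 the count over all genes for the combined treatment was 189, 192 or 263, and without combined replicate 1 or 2 it was 152 or 171, against 1136 with all arrays.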
